A study of Mus musculus with 9 samples.

Results

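The genes described here make up the folding machinery of the endoplasmic reticulum (ER) and the unfolded protein response that regulates it. They are chaperones, disulfide isomerases, stress sensors, components of ER-associated degradation and the protein-conducting channel. Members were chosen by gene name, and all 40 were found among the 56748 genes counted. Of these, 39 had enough reads to be tested, out of 13812 tested genes in all. Derl3, which encodes a derlin of ER-associated degradation, was not tested because it had 0 to 7 reads in each library.

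RNA sequencing was performed on MLO-Y4 cells, an osteocyte-like line derived from the mouse. All 9 samples are therefore from 1 cell line. Each was grown in a transwell beside primary chondrocytes of the mouse, with a porous membrane that lets soluble factors pass between them. In the control group (n = 3) the chondrocytes were unstimulated. In the 24 h group (n = 3) and the 48 h group (n = 3) the chondrocytes had been treated with IL-1β at 10 ng/mL for 6 h, and the groups are named for the length of the co-culture. The labels do not give the co-culture time of the controls, so stimulation and time cannot be told apart in a comparison with control. The cell line entries of the 48 h samples read MLO-Y5, MLO-Y6 and MLO-Y7, whereas the protocols name MLO-Y4 throughout. The labels do not state that replicates came from separate cultures, so p-values measure the spread between these samples, which may be technical.

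Total counts were 12250628 to 15956441 per control library, 14440454 to 15558585 per 24 h library and 16458398 to 18515456 per 48 h library. Expression is given as CPM, the count of a gene relative to the total of its library after scaling for composition. A gene was called when its adjusted p from the edgeR quasi-likelihood test was under 0.05. Among the markers of the labelled cell, Dmp1 had at most 6 counts in any library and Sost at most 1, and Mepe and Fgf23 had 0. The osteocyte and osteoblast list, of which 9 of 13 genes were tested, summed to 3288 to 3464 CPM in controls, 3299 to 3339 CPM at 24 h and 4180.0 to 4250 CPM at 48 h. The chondrocyte list, of which 4 of 12 genes were tested, summed to 111 to 123 CPM, 104 to 112 CPM and 124 to 129.99 CPM, with Acan, Col9a1, Col9a2, Matn1 and Cnmd at 0. Sox9 made up most of that sum, at 104 to 118 CPM in controls, 100 to 107 CPM at 24 h and 120 to 126 CPM at 48 h. The macrophage list, of which 2 of 7 genes were tested, summed to 5.19 to 7.93 CPM, 3.80 to 5.34 CPM and 5.94 to 7.61 CPM, with Adgre1, Itgam and Tyrobp at 0. In bulk RNA, fewer cells of a type and less RNA per cell cannot be told apart. The higher osteocyte and osteoblast sum at 48 h was mostly Gja1, which encodes connexin 43, at 1408 to 1566 CPM in controls and 2399 to 2441 CPM at 48 h. The other tested genes of this list went both ways. Col1a1, a collagen chain, was at 1218 to 1304 CPM in controls and 1145 to 1180 CPM at 48 h. Alpl, alkaline phosphatase, was at 25.4 to 30.4 and 20.2 to 22.5 CPM, and Sp7 was also lower at 48 h. Col1a2, another collagen chain, was higher, at 254 to 273 CPM in controls and 283 to 289 CPM at 48 h. So were Phex (12.8 to 15.9 and 19.3 to 20.6 CPM) and Pdpn (209 to 216 and 228 to 244 CPM). The ranges of Bglap and Runx2 overlapped between these groups. The part of these markers in the values below was not tested.

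Secreted and membrane proteins enter the ER through the Sec61 channel and fold there with the help of HSP70 and HSP90 family chaperones, lectins and disulfide isomerases. When unfolded proteins accumulate, the sensors IRE1α (encoded by Ern1), ATF6 and PERK are activated, and the transcription factors XBP1 and ATF6 raise the transcription of chaperones and of genes that send misfolded proteins to the proteasome. Osteoblast-lineage cells secrete large amounts of collagen and depend on this machinery. XBP1 is switched on by splicing of its mRNA and ATF6 by cleavage of the protein, and neither event is seen in counts per gene.

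Many of these genes share a promoter element, the ER stress response element (ERSE), which NF-Y binds together with ATF6 or XBP1. The RefSeq promoter windows (GRCm38.p6, 250 bases before to 50 after each gene's start, a different build from the GRCm39 coordinates of the count table) were searched on both strands. ERSE was taken as CCAAT and CCACG with 9 free bases between them, and ERSE-II as ATTGG and CCACG with 1 free base between them. The unfolded protein response element (UPRE) was taken as TGACGTGG. A window was found for 34 of the 40 members, and none for Hyou1, Manf, Fkbp10, Atf6, Derl1 and Sec61a1. ERSE was present in 10 of the 34 members (29.4%) and in 39 of 32851 windows (0.119%). The members were Hspa5, Hsp90b1, Calr, Canx, Dnajc3, Creld2, Pdia6, Ero1b, Syvn1 and Derl3. ERSE-II was present in Dnajb11 and Herpud1 and in 12 windows overall (0.0365%). UPRE was present in Vcp alone among the members and in 222 windows overall (0.676%). The sequences below hold an ERSE match, or in Herpud1 an ERSE-II match, and are shown because Ero1b rose at 48 h while Hspa5, Calr, Creld2, Pdia6 and Herpud1 fell and Canx was not called. Capitals mark the fixed bases at each end of the match, which reads as the reverse complement in Calr, Creld2 and Ero1b.
Hspa5: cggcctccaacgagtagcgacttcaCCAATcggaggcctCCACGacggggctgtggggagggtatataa
Calr: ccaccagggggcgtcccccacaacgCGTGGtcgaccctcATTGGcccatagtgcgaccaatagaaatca
Canx: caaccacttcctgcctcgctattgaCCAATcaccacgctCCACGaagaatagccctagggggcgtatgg
Creld2: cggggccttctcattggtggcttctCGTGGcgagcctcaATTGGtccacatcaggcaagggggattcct
Pdia6: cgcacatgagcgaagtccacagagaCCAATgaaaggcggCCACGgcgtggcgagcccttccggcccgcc
Ero1b: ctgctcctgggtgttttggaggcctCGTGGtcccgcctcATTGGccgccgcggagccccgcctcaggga
Herpud1: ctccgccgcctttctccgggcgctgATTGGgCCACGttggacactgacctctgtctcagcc

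These stretches lie at chr2:34772000-34772068 (plus strand) for Hspa5, chr8:84847050-84847118 (minus) for Calr, chr11:50325775-50325843 (minus) for Canx and chr15:88819495-88819563 (plus) for Creld2. Those of Pdia6, Ero1b and Herpud1 lie at chr12:17266466-17266534, chr13:12565657-12565725 and chr8:94386352-94386412, all on the plus strand. Relative to the start of the gene, the match ended 47 bases upstream in Hspa5, 80 in Pdia6, 127 in Canx and 42 in Herpud1. It ended 144 bases upstream in Calr, 108 in Creld2 and 183 in Ero1b. A match is a description of these letters, and binding was not measured.

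In control cells the most abundant member per length was P4hb, the collagen-modifying protein disulfide isomerase, at 667 ± 11.1 CPM per kb (SD, n = 3). It was followed by the lectin chaperone Calr (467 ± 6.07 CPM per kb), the ER HSP90 Hsp90b1 (293 ± 11.7), the isomerase Pdia3 (264 ± 9.33), the ER HSP70 Hspa5 (223 ± 5.86) and the collagen chaperone Serpinh1 (209 ± 10.2). The SD intervals of Hspa5 and Serpinh1 touch, so their order does not exceed the spread, whereas the others in this group are separated by more than their SDs. Ero1b, a disulfide oxidase, was the lowest tested member (2.82 ± 0.00866 CPM per kb). All members together summed to 11928 ± 73.3 CPM in controls, 12918 ± 291.0 CPM at 24 h and 11369 ± 32.0 CPM at 48 h. That was 1.19%, 1.29% and 1.14% of the library total after scaling for composition, which differs slightly from the share of the reads.

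Samples of the 48 h group were compared with controls to see how the folding genes stood at the later time. The ER chaperones Hspa5, Hyou1 and Calr and both collagen chaperones fell, while the oxidase Ero1a, the sensor Ern1, the J protein Dnajb9 and some degradation genes rose. Of the 39 tested members, 10 were called higher (25.6%) and 17 were called lower (43.6%), with a median log2 fold change of -0.08. Across all 13812 genes, 22% were called higher and 24.4% lower, and the median was 0.00. The share called higher was thus near the background, and the share called lower was above it. Most changes were small, and 1 member, Ero1a, more than doubled, with a rise of 112%. Of the 12 members that were not called, 9 had an absolute log2 fold change under 0.1.

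**Figure D1:**
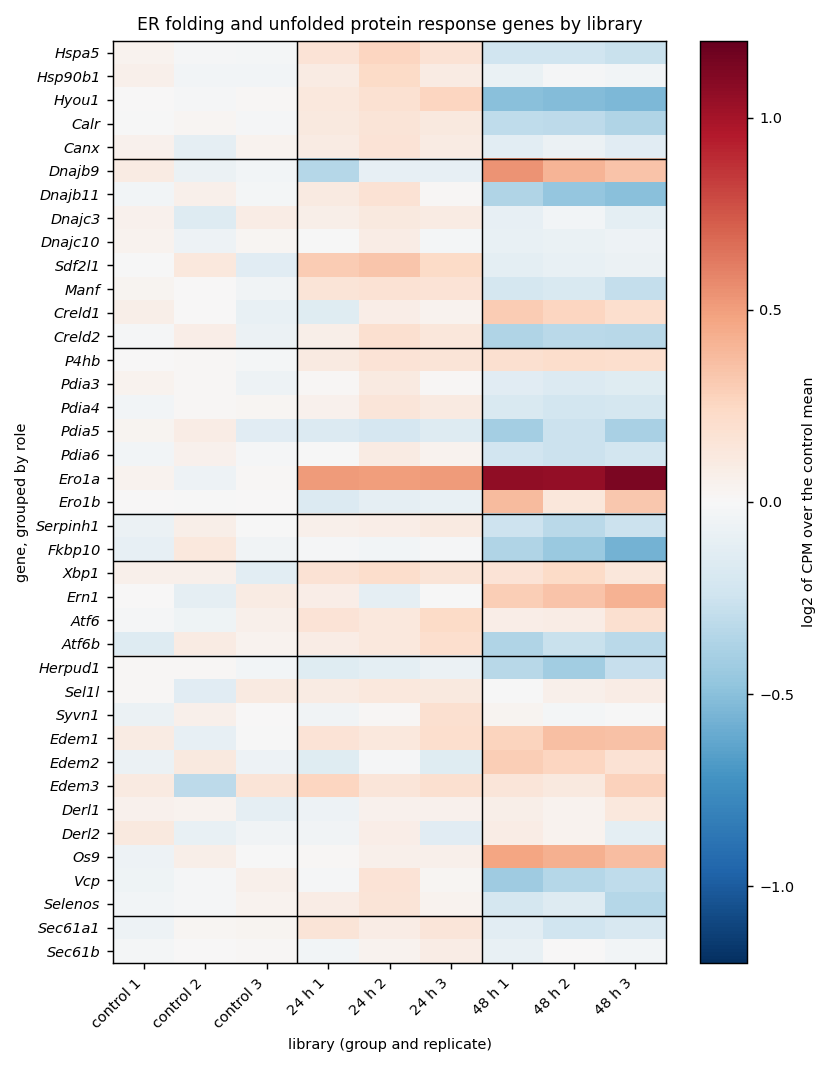
Heat map of the 39 tested members (rows, grouped by role, with lines between roles) in the 9 libraries (columns, 3 per group). Colour is the log2 of CPM over the mean of the controls. Ero1a is the only row with deep red in all 48 h columns, and Hspa5, Hyou1 and Calr are pale red at 24 h and blue at 48 h.

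Among the HSP70 and HSP90 family chaperones and lectins, 3 of 5 fell at 48 h (60%, against 24.4% of all genes) and 0 rose (against 22%). Hspa5 (ENSMUSG00000026864, chr2:34661982-34667559, GRCm39) encodes BiP, the ER HSP70 that binds unfolded chains and holds the stress sensors inactive. Its level was 970.1, 931 and 924 CPM in the controls, 1059, 1127 and 1062 CPM at 24 h and 796, 797 and 781 CPM at 48 h. All 48 h libraries were below all controls and all 24 h libraries were above them. At 48 h the log2 fold change was -0.25 (SE 0.04, adjusted p = 4.2e-05), a level that fell by 15.97%.

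Hyou1 (chr9:44290787-44303666) encodes a large HSP70-like protein that works as a nucleotide exchange factor for BiP. It measured 197, 196 and 199 CPM in controls, 216, 225 and 236 CPM at 24 h and 139.7, 138 and 136 CPM at 48 h. The groups did not overlap, and the log2 fold change at 48 h was -0.52 (SE 0.05, adjusted p = 9.01e-08), the largest fall among the members. Calr (chr8:85568479-85573563) encodes calreticulin, a calcium-binding lectin of glycoprotein folding. It measured 1336, 1364 and 1332 CPM in controls, 1457, 1491 and 1462 CPM at 24 h and 1089, 1080.0 and 1044 CPM at 48 h. These groups did not overlap either, and Calr fell by 0.33 on the log2 scale at 48 h (adjusted p = 5.35e-07). The membrane lectin Canx was not called at 48 h (log2 fold change -0.11, adjusted p = 0.0569), and Hsp90b1 (GRP94) had an absolute log2 fold change under 0.1. The summed level of these 5 genes was 4286 ± 86.0 CPM in controls and 3721 ± 49.7 CPM at 48 h.

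The J proteins, which deliver substrates to BiP, and the other co-chaperones had 2 of 8 higher (25%) and 3 lower (37.5%) at 48 h. With so few genes, these shares are near the 22% higher and 24.4% lower of all genes. Dnajb11 (ERdj3, chr16:22676595-22698384) measured 149.6, 159.6 and 150.4 CPM in controls, 165, 173 and 155 CPM at 24 h and 119, 111 and 108 CPM at 48 h. It fell by 0.44 on the log2 scale at 48 h (adjusted p = 4.73e-06), and no 48 h library reached a control value. Dnajb9 (ERdj4, chr12:44252342-44257109), a J protein that represses IRE1α by recruiting BiP to it, went the other way. It measured 21.3, 19.1 and 19.6 CPM in controls, 15.8, 18.6 and 18.7 CPM at 24 h and 29.0, 26.5 and 25.4 CPM at 48 h. The 48 h libraries were all above the controls (log2 fold change 0.43, SE 0.09, adjusted p = 6.88e-04).

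Creld2 (chr15:88703849-88710886), a secreted ER-stress protein with isomerase activity, measured 101, 108 and 96.9 CPM in controls, 107, 116 and 112 CPM at 24 h and 79.4, 81.4 and 80.8 CPM at 48 h. It fell at 48 h by 0.34 on the log2 scale (adjusted p = 8.45e-05), while its relative Creld1 rose (log2 fold change 0.25, adjusted p = 0.00817). Manf, a secreted stress-induced protein, fell (log2 fold change -0.23, adjusted p = 0.0014). Its count is uncertain, since the annotated gene overlaps Rbm15b on the same strand, whose mean count was 70.5% of that of Manf. Dcaf1 overlaps Manf on the opposite strand, with a mean count 56.3% of that of Manf. Dnajc3, Dnajc10 and Sdf2l1 were not called at 48 h, each with an absolute log2 fold change under 0.1.

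**Figure D2:**
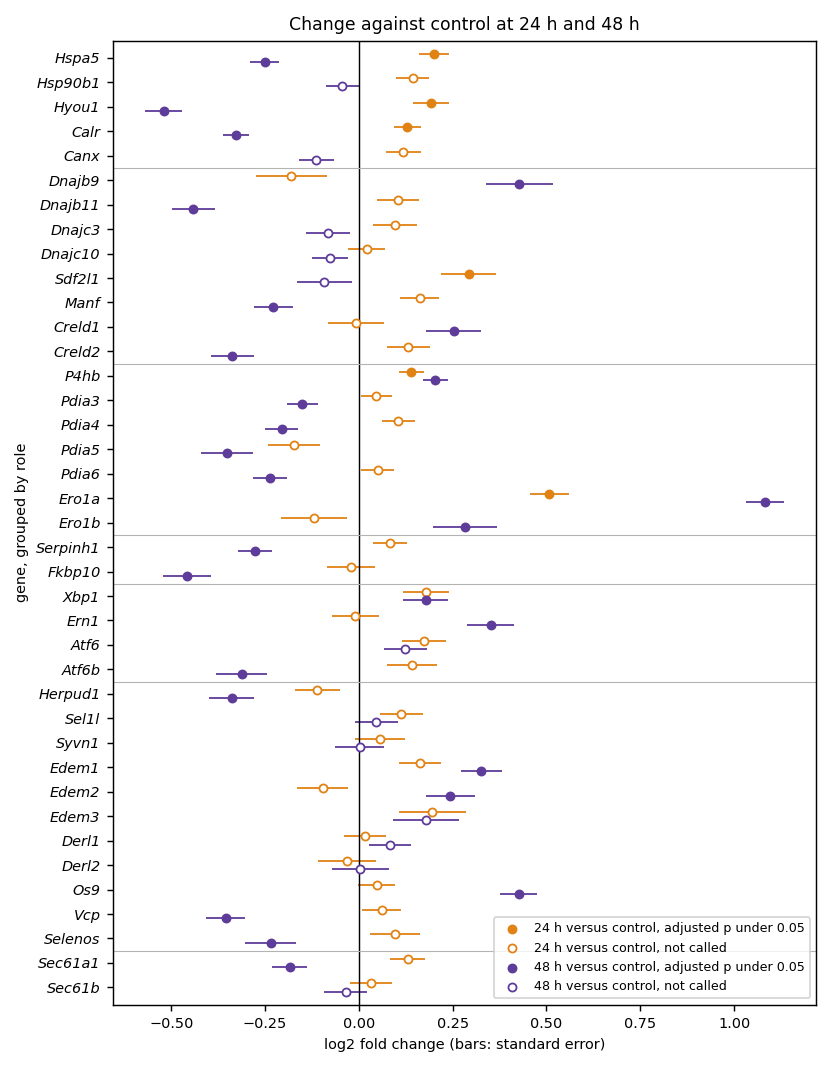
Log2 fold change against control (horizontal axis) at 24 h (orange) and 48 h (purple) for the 39 tested members, grouped by role. Bars are standard errors and filled points have an adjusted p under 0.05. Orange points lie mostly right of 0 with 6 filled, whereas purple filled points lie on both sides, 17 left and 10 right, and Ero1a is farthest right at 1.08.

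All 7 disulfide isomerases and oxidases were called at 48 h, 3 higher (42.9%, against 22% of all genes) and 4 lower (57.1%, against 24.4%). Ero1a (ENSMUSG00000021831, chr14:45520544-45556228) encodes the oxidase that recharges protein disulfide isomerase with disulfide bonds. It measured 97.4, 90.4 and 95.7 CPM in controls, 135, 134 and 135 CPM at 24 h and 197, 196 and 207 CPM at 48 h. The groups were stepped without overlap, and the log2 fold change at 48 h was 1.08 (SE 0.05, adjusted p = 1.17e-11), the largest change of any member. Its paralog Ero1b (chr13:12580755-12626285) measured 18.8, 18.7 and 18.8 CPM in controls, 16.8, 17.4 and 17.7 CPM at 24 h and 24.4, 20.7 and 23.5 CPM at 48 h. Values were highest at 48 h (log2 fold change 0.28, adjusted p = 0.0106), but the call was lost without 48 h replicate 1 (adjusted p = 0.0593).

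P4hb, the abundant isomerase that is also a subunit of collagen prolyl 4-hydroxylase, rose at 48 h from 1908 ± 31.8 to 2197 ± 11.5 CPM (log2 fold change 0.20, adjusted p = 6.45e-05). The remaining isomerases fell. The log2 fold change was -0.15 for Pdia3, which works with the lectins on glycoproteins, -0.21 for Pdia4, -0.35 for Pdia5 and -0.24 for Pdia6. The summed level of the role was 3632 ± 62.8 CPM in controls and 3833 ± 10.5 CPM at 48 h with P4hb, and 1724 ± 31.0 and 1636 ± 15.9 CPM without it, so that 1 gene set the direction of the sum.

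Both collagen chaperones fell at 48 h. Fkbp10 (chr11:100306523-100315650), a prolyl isomerase of procollagen, measured 155, 181 and 161 CPM in controls, 164, 162 and 164 CPM at 24 h and 129, 122 and 112 CPM at 48 h. Those of 48 h were below all others (log2 fold change -0.46, SE 0.06, adjusted p = 1.11e-05). Nt5c3b overlaps it on the opposite strand with a mean count 38.9% of that of Fkbp10 and fell as well (log2 fold change -0.24, adjusted p = 0.00291), so reads of the pair may be mixed if strand was not used in counting. Serpinh1 (HSP47), which binds the procollagen triple helix, fell from 510.5 ± 25.0 to 422 ± 11.1 CPM (log2 fold change -0.28, adjusted p = 6.18e-05).

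Of the 4 stress sensors and transducers, 2 rose (50%, against 22% of all genes) and 1 fell (25%, against 24.4%) at 48 h. Ern1 (chr11:106285476-106378678), which encodes the kinase and ribonuclease IRE1α, measured 137, 127 and 147 CPM in controls, 145, 127 and 136 CPM at 24 h and 168, 173 and 183 CPM at 48 h. The 48 h libraries were all above the others (log2 fold change 0.35, SE 0.06, adjusted p = 1.5e-04). Xbp1 (chr11:5470659-5475893), the mRNA that IRE1α splices, measured 80.3, 80.0 and 70.3 CPM in controls, 86.5, 89.2 and 85.7 CPM at 24 h and 85.9, 90.4 and 84.7 CPM at 48 h. The 48 h libraries were all above the controls, control replicate 3 being lowest, and the log2 fold change was 0.18 (adjusted p = 0.0222). This call was lost without 48 h replicate 2 (adjusted p = 0.1) or control replicate 3 (adjusted p = 0.0735).

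Atf6 (chr1:170532243-170695340), a membrane-bound transcription factor, measured 79.2, 77.0 and 83.1 CPM in controls, 89.2, 87.2 and 93.6 CPM at 24 h and 84.5, 84.7 and 91.4 CPM at 48 h. No control reached a 48 h value, but the gene was not called (log2 fold change 0.12, adjusted p = 0.088). Atf6b (chr17:34866120-34874048), its paralog, measured 61.8, 73.6 and 70.5 CPM in controls, 73.2, 74.9 and 78.8 CPM at 24 h and 53.5, 57.2 and 54.7 CPM at 48 h. All 48 h libraries were below the controls (log2 fold change -0.31, adjusted p = 8.75e-04).

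**Figure D3:**
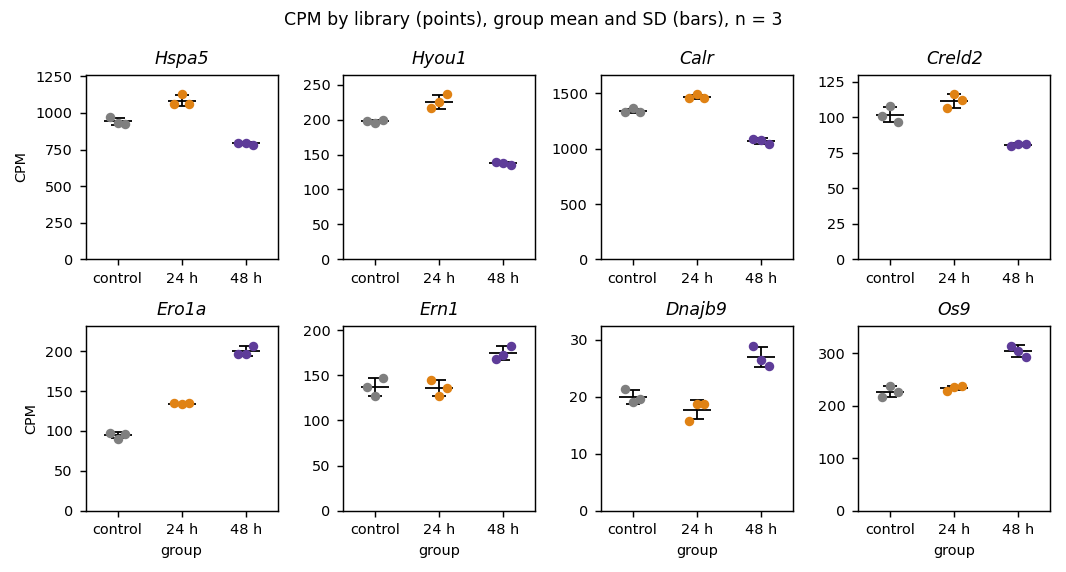
CPM (vertical axes, starting at 0) of 8 members in each of the 9 libraries, by group. Points are libraries, and black bars are the mean and SD of 3 libraries. Hspa5, Hyou1, Calr and Creld2 are lowest at 48 h, whereas Ero1a, Ern1, Dnajb9 and Os9 are highest at 48 h, and Ero1a also stands above control at 24 h.

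In ER-associated degradation, which extracts misfolded proteins to the cytosol, 3 of 11 tested members rose and 3 fell at 48 h, a share of 27.3% each way. That is near the 22% higher and 24.4% lower of all genes. The genes that rose were Os9, Edem1 and Edem2, and those that fell were Vcp, Herpud1 and Selenos. Os9 (chr10:126931519-126957000), a lectin, measured 216, 238 and 225 CPM in controls, 229, 236 and 237 CPM at 24 h and 315, 305 and 293 CPM at 48 h. The 48 h libraries were above all others (log2 fold change 0.43, SE 0.05, adjusted p = 1.16e-06). The mannosidase-like Edem1 and Edem2 rose as well, Edem1 by 0.33 (adjusted p = 8.1e-05) and Edem2 by 0.24 (adjusted p = 0.00557) on the log2 scale. Edem3 had a log2 fold change of 0.18 and was not called (adjusted p = 0.106).

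Vcp (chr4:42979963-43000507), the ATPase that pulls substrates out of the membrane, measured 492, 504 and 529 CPM in controls, 505, 570.3 and 515 CPM at 24 h and 378, 402 and 413 CPM at 48 h. Again the 48 h values were below all others (log2 fold change -0.35, SE 0.05, adjusted p = 1.96e-05). Herpud1, a stress-induced scaffold of the degradation complex, also fell (log2 fold change -0.34, adjusted p = 1.52e-04), as did Selenos, a membrane selenoprotein that recruits VCP (log2 fold change -0.23, adjusted p = 0.00791). The Selenos call was lost without 48 h replicate 3 (adjusted p = 0.0629). The ubiquitin ligase Syvn1, its partner Sel1l and the derlins Derl1 and Derl2 had absolute log2 fold changes under 0.1. Syvn1 and Derl2 overlap Mrpl49 and Mis12 on the opposite strand, whose mean counts were 92.0% and 113% of theirs, so their counts are uncertain. Of the translocon, Sec61a1, the channel subunit, fell (log2 fold change -0.18, adjusted p = 0.0034) and the small subunit Sec61b had an absolute log2 fold change under 0.1.

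At 24 h the changes against control were fewer. They were rises in BiP, its partners Hyou1 and Sdf2l1, calreticulin, P4hb and Ero1a. Of the 39 tested members, 6 were called higher (15.4%) and 0 lower, against 3.25% higher and 2.9% lower across all genes. At an unadjusted p under 0.05, 17 members were higher and 1 member, Pdia5, was lower, while 9.32% of all genes were higher and 9.34% lower at that threshold. With DESeq2, 7 were called higher and 0 lower. The median log2 fold change of the members was 0.10, and 30 of 39 were positive, compared with 48.9% of all genes. The counts depend on single libraries. Without 24 h replicate 2 there were 2 members higher, without 24 h replicate 3 there were 3, and without control replicate 3 there were 10 higher and 1 lower. When only the 24 h and control libraries entered the fit, 3 were higher.

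Ero1a changed most at 24 h (log2 fold change 0.51, SE 0.05, adjusted p = 3.59e-06), to a level 42.2% above control. Hspa5 rose by 14.9% (log2 fold change 0.20, SE 0.04, adjusted p = 0.00325). These are the members that stayed called at an adjusted p under 0.01. Sdf2l1, which joins J proteins to BiP, measured 34.0, 37.3 and 31.1 CPM in controls, 42.2, 43.0 and 40.004 CPM at 24 h and 31.5, 32.0 and 32.5 CPM at 48 h. At 24 h the libraries were all above the controls (log2 fold change 0.29, adjusted p = 0.0197), whereas those of 48 h lay within the control range. Hyou1 (log2 fold change 0.19, adjusted p = 0.0221), P4hb (0.14, adjusted p = 0.0151) and Calr (0.13, adjusted p = 0.036) also rose. Each of Hyou1, P4hb, Calr and Sdf2l1 lost its call in at least 1 fit without a library, with adjusted p of 0.0517 to 0.133 for Hyou1 and 0.0591 to 0.112 for Calr in the fits that lost it.

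By role, 3 of 5 HSP70 and HSP90 family chaperones and lectins, 1 of 8 co-chaperones and 2 of 7 isomerases and oxidases were higher at 24 h. The 5 chaperones and lectins summed to 4757 ± 143.3 CPM, compared with 4286 ± 86.0 CPM in controls. None of the 2 collagen chaperones, 4 sensors, 11 tested degradation genes and 2 translocon genes was called at 24 h. Across all genes 3.25% were called higher and 2.9% lower, so 0 calls among so few genes is near that share. Xbp1 (log2 fold change 0.18, adjusted p = 0.0961) and Atf6 (0.17, adjusted p = 0.0893) were not called. Other uncalled members of at least 0.1 in size went both ways. Dnajb9 (-0.18), Pdia5 (-0.17), Ero1b (-0.12) and Herpud1 (-0.11) were on the lower side. Edem3 (0.20), Edem1 (0.16), Manf (0.16), Hsp90b1 (0.14), Atf6b (0.14), Creld2 (0.13) and Sec61a1 (0.13) were on the higher side. So were Canx (0.12), Sel1l (0.11), Pdia4 (0.11) and Dnajb11 (0.10). Ern1 had an absolute log2 fold change under 0.1.

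The direct comparison of 48 h with 24 h shares its libraries with the comparisons above, and the controls entered the same fit, where they add to the estimate of the spread. All 5 chaperones and lectins, 5 of 8 co-chaperones and both collagen chaperones were lower at 48 h than at 24 h, and 8 members led by Dnajb9 and Ero1a were higher. Of the 39 tested members, 8 were called higher (20.5%) and 21 lower (53.8%), with a median log2 fold change of -0.18. The background was 23.7% higher and 25.4% lower over all genes, with a median of 0.00. The differences of the chaperones and lectins ran from Hyou1 at -0.71 (SE 0.05, adjusted p = 1.28e-09) to Hsp90b1 at -0.19 (adjusted p = 0.00157). Hspa5 differed by -0.45 (adjusted p = 2.97e-08), a level that fell by 26.9%, and Calr by -0.46 (adjusted p = 6.52e-09).

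The lower co-chaperones were led by Dnajb11 (-0.55, adjusted p = 2.94e-07) and Creld2 (-0.47, adjusted p = 1.59e-06). Dnajb9 was higher (0.61, adjusted p = 1.82e-05) and so was Creld1 (0.26, adjusted p = 0.00592). Ero1a was higher at 48 h than at 24 h by 0.57 (adjusted p = 3e-08), and Ero1b by 0.40 (adjusted p = 6.72e-04). P4hb had an absolute log2 fold change under 0.1. Fkbp10 was lower by -0.44 and Serpinh1 by -0.36. Ern1 was higher by 0.36 (adjusted p = 9.89e-05) and Atf6b lower by -0.46 (adjusted p = 1.54e-05), whereas Xbp1 and Atf6 had absolute values under 0.1. In degradation, Os9, Edem2 and Edem1 were higher (0.38, 0.34 and 0.16), and Vcp, Selenos and Herpud1 were lower (-0.42, -0.33 and -0.23).

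The promoter elements printed above were set beside these changes. Of the 12 members with an ERSE or ERSE-II match, 11 were tested. At 48 h against control, 1 of these was higher (Ero1b) and 6 lower (54.5%, against 24.4% of all genes), with a median log2 fold change of -0.24. At 24 h, 2 were higher (Hspa5 and Calr, 18.2%, against 3.25% of all genes) and 0 lower, with a median of 0.10. At 48 h against 24 h, 1 was higher and 9 lower (81.8%, against 25.4% of all genes), with a median of -0.23. The 22 members with a window and no such match had 9 higher (40.9%, against 22% of all genes) and 7 lower (31.8%) at 48 h against control, with a median of 0.03. At 24 h they had 3 higher (13.6%) and 0 lower, with a median of 0.07. At 48 h against 24 h they had 7 higher (31.8%, against 23.7% of all genes) and 8 lower (36.4%), with a median of -0.04. The 9 that rose against control were Dnajb9, Creld1, P4hb, Ero1a, Xbp1, Ern1, Edem1, Edem2 and Os9. The 7 that fell were Pdia3, Pdia4, Pdia5, Serpinh1, Atf6b, Vcp and Selenos. Members without a window are in neither group. Of those, Hyou1, Manf, Fkbp10 and Sec61a1 fell at 48 h, and Atf6 and Derl1 were not called. No test was made of this split.

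Related pathways were read from 8 further lists at 48 h against control, where 22% of all genes were higher and 24.4% lower. The integrated stress response downstream of PERK had 2 of 12 genes higher and 8 lower, with a median log2 fold change of -0.32. Its largest changes were in Chac1, a glutathione-degrading enzyme (-1.30, adjusted p = 9.67e-09), and Asns, asparagine synthetase (-1.09, adjusted p = 7.73e-11). Further genes of this arm are named after their values were seen. Atf4, its central transcription factor, fell (-0.76, adjusted p = 2.67e-10), as did Ddit3, which encodes CHOP (-0.23, adjusted p = 0.0205). The Ddit3 call was lost without 48 h replicate 3 (adjusted p = 0.111), control replicate 1 (adjusted p = 0.0713) or control replicate 2 (adjusted p = 0.124). The genes that rose were Atf3 (0.96, adjusted p = 2.86e-04) and Nupr1 (0.41, adjusted p = 3.21e-05), both stress-inducible nuclear factors. At 24 h this list had 0 higher and 1 lower, which was Ddit3 (-0.31, adjusted p = 0.0199).

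Cytosolic and mitochondrial chaperones had 0 of 30 genes higher and 23 lower at 48 h, with a median of -0.47 and the largest falls in the mitochondrial chaperonin Hspd1 (-0.94, adjusted p = 1.0e-11) and the small heat shock protein Cryab (-0.81, adjusted p = 8.77e-06). None of them was called at 24 h. The oligosaccharyltransferase and glycoprotein quality control list had 0 of 16 higher and 8 lower, with a median of -0.15, led by the glucosidase Mogs (-0.48) and the transferase subunit Rpn1 (-0.35). The list of further translocon, signal peptidase and translocon-associated genes had 0 of 17 higher and 5 lower, led by Srprb (-0.44) and Sec11c (-0.35).

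The other 4 lists held calls in both directions at 48 h, as did all genes. Further degradation genes had 3 of 25 higher (12%) and 6 lower (24%), led by Herpud2 (0.42) and Ube2k (-0.39). Further oxidoreductases and prolyl isomerases had 4 of 19 higher (21.1%) and 6 lower (31.6%), led by Fkbp11 (-0.83) and Fkbp7 (0.56). Further luminal chaperones and calcium-binding proteins had 5 of 15 higher (33.3%) and 3 lower (20%), led by Nucb1 (0.41) and Rcn3 (0.32). Further sensors and proteases had 3 of 10 higher and 3 lower (30% each way), led by Creb3l4 (1.08) and Creb3l1 (-0.90, adjusted p = 2.41e-08), a transcription factor related to ATF6 that regulates collagen genes in osteoblasts. Creb3l4 was scarce, at 0.835 CPM in controls, and its call was lost without 48 h replicate 1, 48 h replicate 3 or control replicate 3 (adjusted p = 0.0732, 0.0808 and 0.0784). Chac1 thus changed more than any member, and Hspd1 more than any member other than Ero1a.

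**Figure D4:**
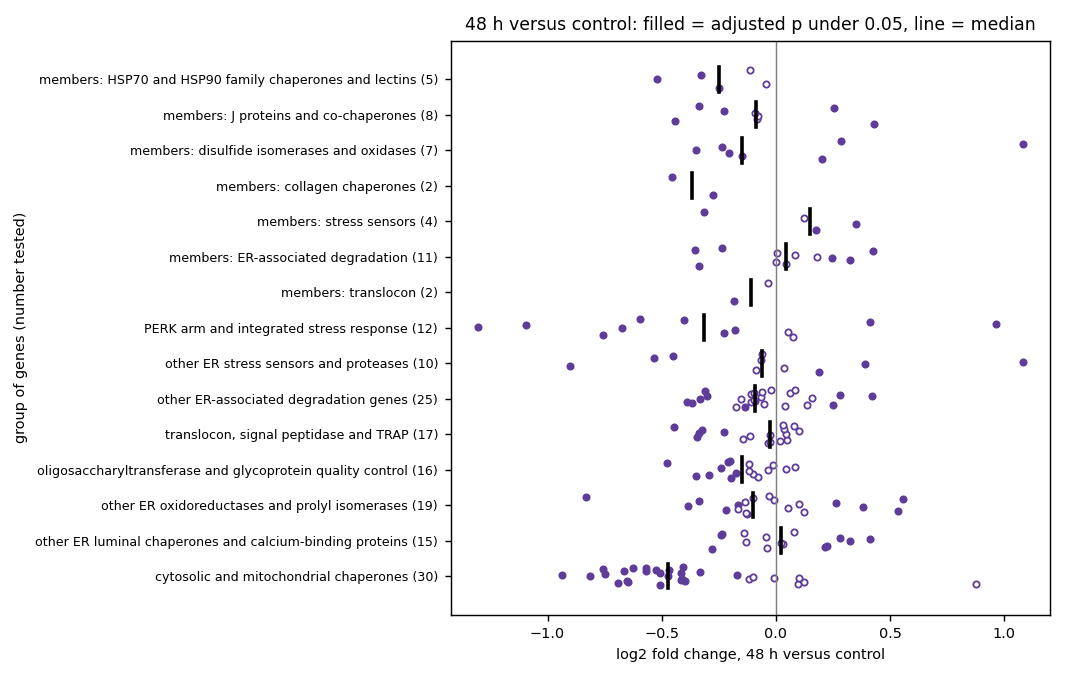
Log2 fold change at 48 h against control (horizontal axis) for the tested genes of each member role and of the 8 further lists (rows, with the number tested). Filled points have an adjusted p under 0.05 and black lines are medians. The cytosolic and mitochondrial chaperones (median -0.47) and the PERK arm (median -0.32) lie left of 0, while the degradation genes and sensors among the members lie on both sides.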

How the data were processed

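The authors deposited raw read counts per gene, with gene names, GRCm39 coordinates and lengths. According to the labels and methods, directional paired-end libraries were aligned with HISAT2 and counted with featureCounts. RSEM is also named, and the sources differ on the featureCounts version. The strand setting and the handling of reads with several matches are not given in the sources used here, so counts of overlapping genes are uncertain. Groups and replicate numbers came from the sample labels. Every column was mapped, and 0 were left unused.

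Counts were analysed in R 4.3.3 with edgeR 4.0.16 and limma 3.58.1. The filterByExpr function (minimum count 10) kept 13812 of the 26232 genes with reads, and libraries were scaled by TMM. A quasi-likelihood model with the 3 groups was fitted to the 9 libraries together, leaving 6 residual degrees of freedom. Adjustment of p-values followed Benjamini and Hochberg over all tested genes, with a threshold of 0.05. CPM are counts relative to the scaled total, and the SE is the absolute log2 fold change over the square root of F. CPM per kb used the deposited gene lengths. The fit was tested on simulated data. DESeq2 1.42.0, library size scaling, no low-count filter, stricter thresholds, 2-group fits, a replicate block and leaving out each library were alternatives.

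The members and all lists were chosen with earlier results of these data known. All members are named. Values per library are given for stress sensors and for members called with an absolute log2 fold change of at least 0.4, and for Sdf2l1, added after its values were seen. Log2 fold changes of members are printed when called or at least 0.1 in size. The 2 largest called changes of each other list are named, and 4 further genes of the PERK arm were added after their values were seen. Promoters came from RefSeq (GRCm38.p6), and the motifs are textbook consensus elements.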

Additional observations from a re-analysis of the deposited data

Results flagged for a closer look

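The change against control at 48 h differed from that at 24 h for 29 members, by the direct edgeR test of 48 h against 24 h, with an adjusted p of 1.28e-09 to 0.0402. Of the 39 tested members, 20.5% were higher and 53.8% lower. Across all genes, 23.7% were higher and 25.4% lower in the same test, so only the lower share stands above the background. Values are log2 differences, 48 h minus 24 h. Among the chaperones and lectins they were -0.45 for Hspa5, -0.19 for Hsp90b1, -0.71 for Hyou1, -0.46 for Calr and -0.23 for Canx. Among the co-chaperones they were 0.61 for Dnajb9, -0.55 for Dnajb11, -0.18 for Dnajc3, -0.38 for Sdf2l1, -0.39 for Manf, 0.26 for Creld1 and -0.47 for Creld2. Among the isomerases and oxidases they were -0.20 for Pdia3, -0.31 for Pdia4, -0.18 for Pdia5, -0.29 for Pdia6, 0.57 for Ero1a and 0.40 for Ero1b. The collagen chaperones gave -0.36 for Serpinh1 and -0.44 for Fkbp10, and the sensors 0.36 for Ern1 and -0.46 for Atf6b. In degradation and the translocon they were -0.23 for Herpud1, 0.16 for Edem1, 0.34 for Edem2, 0.38 for Os9, -0.42 for Vcp, -0.33 for Selenos and -0.31 for Sec61a1. The calls of Pdia5, Dnajc3, Edem1 and Creld1 were each lost in at least 1 fit without a library.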

How the results depend on the processing

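The alternatives gave 1648 values for the log2 fold changes that were called or at least 0.1 in size, and 0 of these changed sign. The stricter thresholds reused the log2 fold changes of the main fit, so those values could not change sign. Fits without a library of the group outside a comparison kept all libraries compared, so they test the sign little. Smaller changes that were not called were not followed. The genes called were 6408 at 48 h against control, 849 at 24 h against control and 6782 at 48 h against 24 h. Requiring an absolute log2 fold change of at least 0.5 left 2477, 250 and 2870 of the 13812 tested genes. Among the 39 tested members it left 1 higher and 1 lower at 48 h against control, 1 higher at 24 h, and 2 higher and 2 lower at 48 h against 24 h. At this threshold the share of members called, in either direction, was below that of all genes in both comparisons of the 48 h group. An adjusted p under 0.01 left 464 genes and 2 members higher at 24 h, and a fit of only the 2 groups compared left 3 members higher at 24 h. Leaving out 1 library gave 518 to 1475 genes, 2 to 10 members higher and 0 to 1 lower at 24 h, with 518 genes without 24 h replicate 3, 524 without 24 h replicate 1 and 1475 without control replicate 3. The replicate numbers in the labels were shared by the groups. Same-numbered libraries deviated together with r of -0.05 to 0.08 over 9 pairs, none over 0.1, so the numbers were not taken as pairing. With the replicate block, 6468, 958 and 6810 genes were called. Members were 11 higher and 17 lower at 48 h against control, 6 higher and 0 lower at 24 h, and 8 higher and 21 lower at 48 h against 24 h. The smallest called change of a member at 24 h was 0.13 on the log2 scale.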
